A study of Homo sapiens with 30 samples.

Results

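The 3 long noncoding RNAs (lncRNAs) that the study depleted before it profiled repressive chromatin, LINC00641, SETD5-AS1 and LINC00662, are described here at their own loci. For each lncRNA, all called peaks that overlapped the gene span or the 500 kb on either side of it were taken from each of the 5 peak lists. This gave 214 of 431864 peaks. The question was whether the chromatin next to the gene of an lncRNA differed when that RNA was depleted, compared with the rest of the genome.

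HEK293T, an established line of human embryonic kidney cells, was transfected with antisense oligonucleotides (ASOs) and used for ChIP-seq after 48 h. H3K27me3 was profiled with a negative control ASO (NC), with a LINC00641 ASO (ΔLINC00641) and with a SETD5-AS1 ASO (ΔSETD5-AS1), and H3K9me3 with NC and with a mix of LINC00662 ASOs (ΔLINC00662). Each group had 3 ChIP and 3 input samples, whose reads were merged before peaks were called, so that each group is 1 list without an error between replicates and no test between groups was possible. ΔLINC00641 and ΔSETD5-AS1 share 1 NC list, and the amounts of the 3 RNAs were not analysed here.

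H3K27me3 is laid down by Polycomb repressive complex 2 and marks silenced developmental genes, often over CpG-rich promoters. H3K9me3 is laid down by enzymes such as SETDB1 and SUV39H1, is read by HP1 proteins, and covers repeats, pericentromeric satellites and clusters of zinc finger genes. An lncRNA can act in cis, on chromatin near the place where it is made, or in trans, at distant sites, and an ASO lowers the RNA by recruiting RNase H to the RNA strand of the hybrid.

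LINC00641 (ENSG00000258441.1_8) lay on the minus strand at chr14:21668238-21675059 in the hg19 build, a gene of 6822 bp. Its window held the starts of 29 protein-coding genes, among them a run of ribonuclease A family genes and olfactory receptor genes. SETD5-AS1 is listed by the annotation as THUMPD3-AS1 (ENSG00000206573.11_14) at chr3:9391373-9440263, minus strand, 48891 bp. It overlapped THUMPD3 and started within 1 kb of the start of SETD5, a gene for a SET domain protein that is transcribed in the opposite direction. The window of SETD5-AS1 held the starts of 17 protein-coding genes. LINC00662 (ENSG00000261824.8_13) covered 112934 bp at chr19:28171980-28284913, minus strand, in the first stretch of the long arm next to the centromere. Its window held the start of 8 lncRNA genes and of 0 protein-coding genes, and 59803 of its bases are unknown in the build.

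The ASO target sites are shown because they are the places at which depletion acts, and because the oligonucleotides differed in how many further places they match. Each line gives the RNA strand 5′ to 3′, with the 20 bases that pair with the ASO in capitals.
LINC00641-ASO-2 site: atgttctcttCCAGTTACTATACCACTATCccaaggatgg
SETD5-AS1-ASO-1 site: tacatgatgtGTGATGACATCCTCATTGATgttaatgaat
LINC00662-ASO-1 site: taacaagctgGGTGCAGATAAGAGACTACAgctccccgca
LINC00662-ASO-3 site: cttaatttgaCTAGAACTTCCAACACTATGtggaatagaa
The LINC00641-ASO-2 site lay in an exon at chr14:21668698-21668717 and was present in 2 of 2 annotated transcripts. The SETD5-AS1-ASO-1 site lay in an exon at chr3:9432018-9432037 and was present in 35 of 39 transcripts. Neither had another exact match in the genome, nor a site with 1 mismatch. The file headers name these 2 for the H3K27me3 lists. LINC00641-ASO-1, which they do not name, had 2 exact matches, 1 of them on the transcribed strand of another protein-coding gene, and 49 sites with 1 mismatch. The LINC00662-ASO-1 site was exonic, at chr19:28284662-28284681, only 0.242 kb from the annotated start, and was carried by 40 of 80 transcripts. The 3 LINC00662 oligonucleotides together matched 42 of 80 annotated transcripts.

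LINC00662-ASO-3 stood apart from the other oligonucleotides shown. Its site in LINC00662, at chr19:28281738-28281757, was exonic and present in 3 of 80 transcripts, but the same 20 bases had 112 exact matches in the genome, and a further 9110 sites had 1 mismatch. The matched letters are known from the LINE-1 retrotransposon family, whose copies are spread over all chromosomes, but no repeat annotation was searched here. Of the exact matches, 34 lay within other annotated genes on the transcribed strand, including 18 protein-coding genes, and with 1 mismatch 3115 sites did so, in 1302 protein-coding genes. In spliced transcripts of other genes it had 0 exact matches, and 15 genes carried a site with 1 mismatch. By comparison, LINC00662-ASO-1 had 3 genomic sites with 1 mismatch, and the NC oligonucleotide had no site with fewer than 2 mismatches. The file headers name a mix and do not say which of the 3 oligonucleotides it held.

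The 3 promoters differed in CpG content, and none carried a peak of either mark in any of the 5 lists. They are shown from 250 bases before to 50 bases after the RefSeq start (GRCh38.p14 entries, each found once in the window of the build used by the files), with every CG in capitals.
LINC00641 promoter (chr14:21675010-21675309): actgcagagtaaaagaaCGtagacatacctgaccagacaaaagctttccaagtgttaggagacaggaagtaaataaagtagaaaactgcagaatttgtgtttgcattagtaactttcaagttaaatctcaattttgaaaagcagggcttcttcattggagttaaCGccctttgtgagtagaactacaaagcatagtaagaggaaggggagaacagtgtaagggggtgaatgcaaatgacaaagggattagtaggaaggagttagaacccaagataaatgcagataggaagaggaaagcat
SETD5-AS1 promoter (chr3:9438258-9438557): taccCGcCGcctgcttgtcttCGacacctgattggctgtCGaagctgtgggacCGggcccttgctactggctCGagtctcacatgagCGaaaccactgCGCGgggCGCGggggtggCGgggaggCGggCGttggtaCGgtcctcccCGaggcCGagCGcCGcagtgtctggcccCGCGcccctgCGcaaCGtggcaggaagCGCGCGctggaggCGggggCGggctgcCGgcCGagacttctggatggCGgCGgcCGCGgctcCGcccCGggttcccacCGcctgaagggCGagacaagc
LINC00662 promoter (chr19:28284799-28285098): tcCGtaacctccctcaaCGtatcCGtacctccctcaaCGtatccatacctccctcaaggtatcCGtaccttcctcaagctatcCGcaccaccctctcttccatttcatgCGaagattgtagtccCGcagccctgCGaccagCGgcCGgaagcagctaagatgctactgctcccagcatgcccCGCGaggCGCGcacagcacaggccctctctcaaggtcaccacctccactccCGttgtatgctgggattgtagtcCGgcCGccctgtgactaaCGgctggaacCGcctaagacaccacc
The LINC00641 promoter held 2 CG in 300 bases and the SETD5-AS1 promoter 38, against a median of 14 over 35116 RefSeq promoters. The LINC00662 promoter was intermediate, with 20. A promoter with at least 38 CG was rare, at 9.91% of all promoters. The nearest H3K27me3 peak was 137 kb from the SETD5-AS1 promoter in NC, 137 kb in ΔLINC00641 and 139 kb in ΔSETD5-AS1. From the LINC00641 promoter it was 137 kb away in each of the 3 lists. The LINC00662 promoter had its nearest H3K9me3 peak at 1.97 kb in NC and at 1.96 kb in ΔLINC00662.

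**Figure D1:**
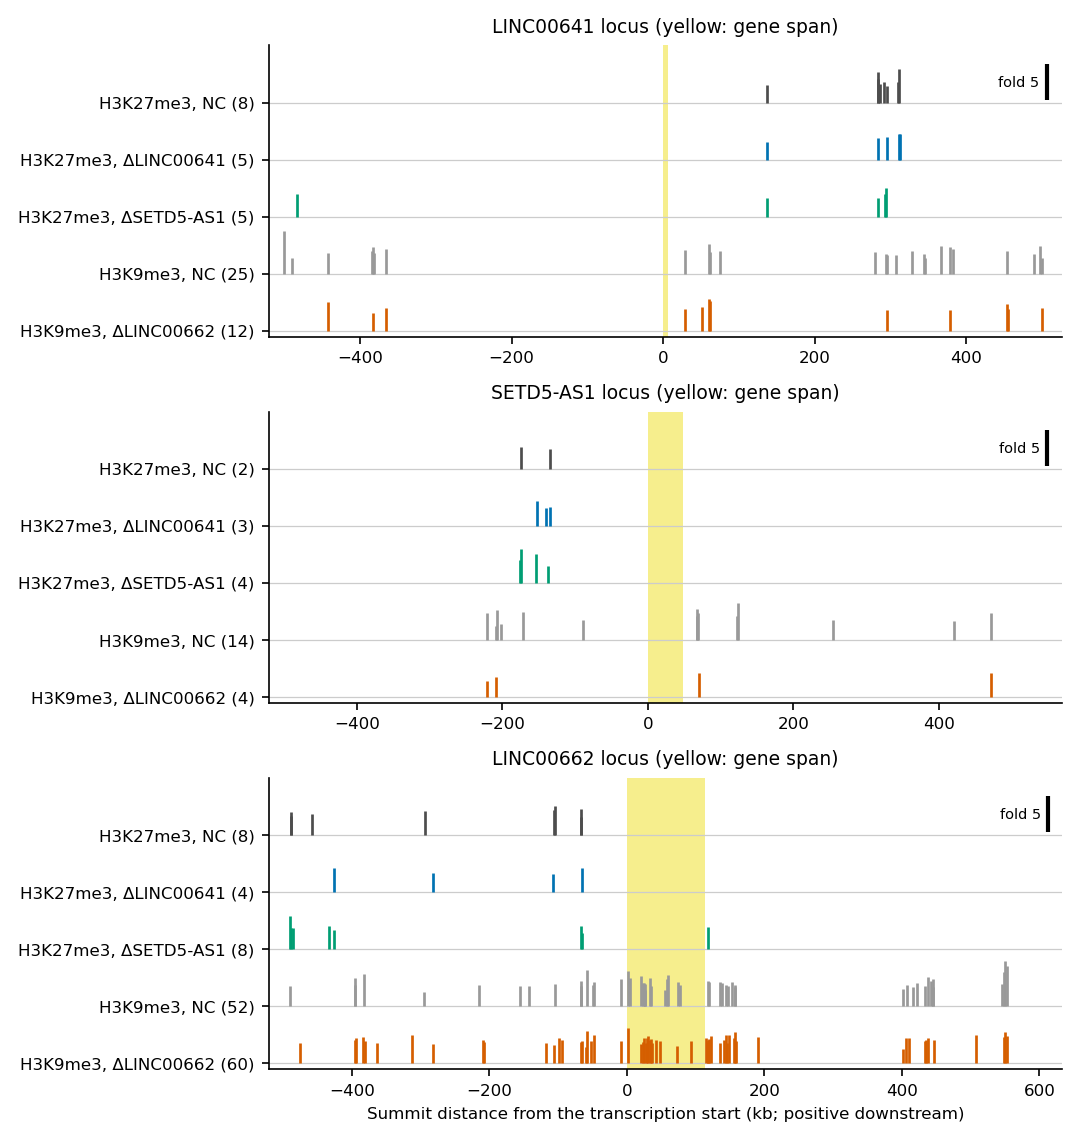
Called peaks around the 3 targeted lncRNA genes. Each vertical line is a peak summit, placed by its distance from the transcription start (kb, positive downstream), with a height in proportion to its fold enrichment over input (the scale bar marks a fold of 5); rows are the 5 peak lists with the number of peaks in brackets, and yellow marks the gene. Peaks lie inside a gene only at LINC00662 and only for H3K9me3, 14 in NC and 14 in ΔLINC00662.

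H3K27me3 was sparse at all 3 loci. Over the genome the H3K27me3 lists had 33.9 (NC), 28.4 (ΔLINC00641) and 32.4 (ΔSETD5-AS1) peaks per Mb. The LINC00641 window had 7.95 peaks per Mb in NC, the SETD5-AS1 window 1.91 and the LINC00662 window 7.19. Inside the span of the 3 genes, 0 H3K27me3 peaks were called in each list. At the genome-wide input level a peak needed at least 11 fragments at its summit in NC, so weaker H3K27me3 was not detectable at this depth.

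**Figure D2:**
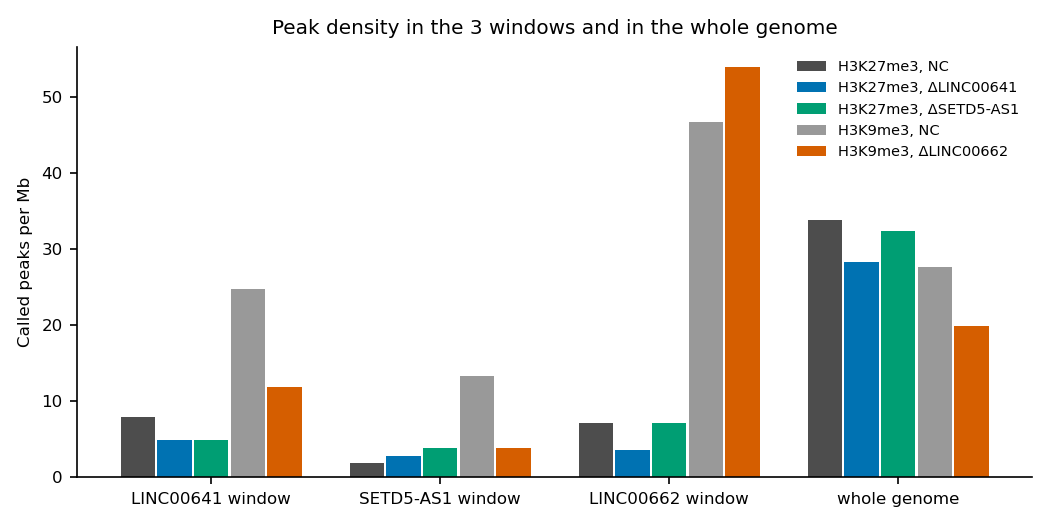
Called peaks per Mb (vertical axis, from 0) in the window of each targeted lncRNA and over the whole genome, 1 bar for each of the 5 pooled lists. H3K27me3 bars are below the genome-wide bars at all 3 loci, and H3K9me3 is above the genome-wide level only at LINC00662, with 46.7 peaks per Mb in NC and 53.9 in ΔLINC00662.

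The LINC00641 window held 8 H3K27me3 peaks in NC and 5 in each of the knockdowns. The number was therefore equally low after the ASO against the local RNA and after the ASO against an RNA on another chromosome. In ΔLINC00641, 4 of 8 NC peaks were retained, that is, overlapped by a peak of the knockdown by at least 1 bp (50%, exact Clopper-Pearson 95% interval 15.7% to 84.3%), against 53.2% of all NC peaks. In ΔSETD5-AS1, 3 of 8 were retained, against 56.3% of all NC peaks. Such intervals count each peak as an independent event and hold counting error only. Of the 5 peaks in ΔLINC00641, 0 were new, that is, without an NC partner (interval 0% to 52.2%), against 35.5% of all peaks of that list. When the overlap had to cover at least 50% of the peak, 2 of 8 were retained in ΔLINC00641 (25%) and 1 of 5 was new (20%). The ratio of peak numbers was 0.625 in the window and 0.837 over the genome, and 740 of 986 tiles of 1 Mb with at least 10 NC peaks had a ratio of at least 0.625. This was the first quartile of the tiles, and the window itself held fewer NC peaks than a tile needed. With the ratios of genome-wide peaks of the same GC content a ratio of 1.00 was obtained, and 413 of 986 tiles retained at least 50% of their NC peaks. Peak number near LINC00641 was thus low but inside the range of the tiles, and retention was near their middle.

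The peaks of the LINC00641 window lay far from the gene. The nearest one was in an intron of NDRG2 at chr14:21537032-21537638, 130.6 kb away, and within 1 kb of a start of ARHGEF40. Fold enrichment is the fragments at the summit over the local input, with 1 added to each. For this peak it was 2.41 in NC with 35 fragments, 2.52 in ΔLINC00641 with 36 and 2.63 in ΔSETD5-AS1 with 33. This peak was present in all 3 lists at nearly the same fold enrichment. ARHGEF40 was the only one of 29 protein-coding genes in the window with an H3K27me3 peak within 1 kb of a start. Over the genome, 10.2% of 20098 protein-coding genes had such a peak in NC. Its summit sequence, from chr14:21537236-21537436 on the plus strand with CG in capitals, held 11 CG in 201 bases.
ARHGEF40 peak: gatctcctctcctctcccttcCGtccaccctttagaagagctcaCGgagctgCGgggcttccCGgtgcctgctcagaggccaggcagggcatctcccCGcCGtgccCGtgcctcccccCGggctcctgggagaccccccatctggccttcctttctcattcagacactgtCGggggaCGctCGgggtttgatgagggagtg

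The other NC peaks of that window clustered about 300 kb downstream of LINC00641, near the ribonuclease genes RNASE3 and RNASE2. The strongest NC peak there, chr14:21361036-21363826, had a fold enrichment of 4.75 with 25 fragments. In ΔLINC00641 it was matched by a pair of shorter peaks, chr14:21361246-21362193 and chr14:21362727-21363495, each with a fold of 3.55 and 16 fragments, and in ΔSETD5-AS1 no peak was called there. The strongest lost peak of this cluster, chr14:21391439-21391956, had a fold of 4.31 and 21 fragments, and ΔLINC00641 had a peak 624 bp from it. The same peak was retained in ΔSETD5-AS1. Next came chr14:21364121-21364600 and chr14:21382461-21382867, each with a fold of 2.88 and 13 fragments, of which the first lay 626 bp from a peak of ΔLINC00641. Of the 4 lost peaks, 2 had a knockdown peak within 1 kb. Over the 3 peaks paired 1 to 1, the median log2 ratio of fold enrichment was 0.07, compared with 0.02 over 39047 pairs of the genome.

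At SETD5-AS1 there were 2 (NC), 3 (ΔLINC00641) and 4 (ΔSETD5-AS1) H3K27me3 peaks, too few for a share to be precise. All of them lay on 1 side of the gene, 134865 to 175079 bp upstream of its start, in or next to LHFPL4, a gene for a synaptic protein that helps to cluster GABA-A receptors. In ΔSETD5-AS1, 1 of 2 NC peaks was retained (50%, interval 1.26% to 98.7%), against 56.3% of all NC peaks. New peaks were 3 of 4 (75%, interval 19.4% to 99.4%), against 39.5% of all peaks in that list. The retained peak, chr3:9614631-9614940, had a fold enrichment of 3.03 with 16 fragments in NC and 4.71 with 26 fragments in ΔSETD5-AS1, where it was the strongest of the window. It had no partner in ΔLINC00641. The log2 ratio of 0.64 rests on this 1 pair.

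The promoter region of LHFPL4 had a called peak in both knockdowns and none in NC, and was the only one of 17 protein-coding promoter regions in the window with an H3K27me3 peak. In ΔSETD5-AS1 it was chr3:9593647-9594026, with a fold enrichment of 4.06 and 24 fragments, and it was the strongest new peak. The one in ΔLINC00641 was chr3:9592808-9593460, with a fold of 3.46 and 18 fragments. These peaks did not overlap each other. Over the genome, 10.2% (NC), 11.1% (ΔLINC00641) and 10.1% (ΔSETD5-AS1) of protein-coding genes had an H3K27me3 peak within 1 kb of a start. The second new peak of ΔSETD5-AS1, chr3:9615342-9615636, had a fold of 3.20 and 18 fragments and lay next to the retained one. The NC peak lost in ΔSETD5-AS1, chr3:9575208-9575856 in an intron of LHFPL4, had a fold of 2.82 with 18 fragments, and it had a partner in ΔLINC00641, with a fold of 2.63 and 13 fragments. SETD5, THUMPD3 and the other protein-coding genes of the window had no H3K27me3 peak within 1 kb of a start in any list.

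H3K9me3 was dense at LINC00662. The window held 52 peaks in NC and 60 in ΔLINC00662, a ratio of 1.15, and the peaks covered 33.3 kb in NC and 38.2 kb in ΔLINC00662. Over the genome the number was lower in ΔLINC00662, with a ratio of 0.716, and on chromosome 19 the ratio was 0.879. When the NC peaks of the window were given the ratios of genome-wide peaks of the same GC content, in 5 groups, a ratio of 0.773 was obtained. Of the 2521 tiles with at least 10 NC peaks, 101 had a ratio of at least 1.15, and on chromosome 19 this was 4 of 48. The neighbourhood of LINC00662 was therefore among the tiles in which H3K9me3 peaks were not fewer after ΔLINC00662.

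**Figure D3:**
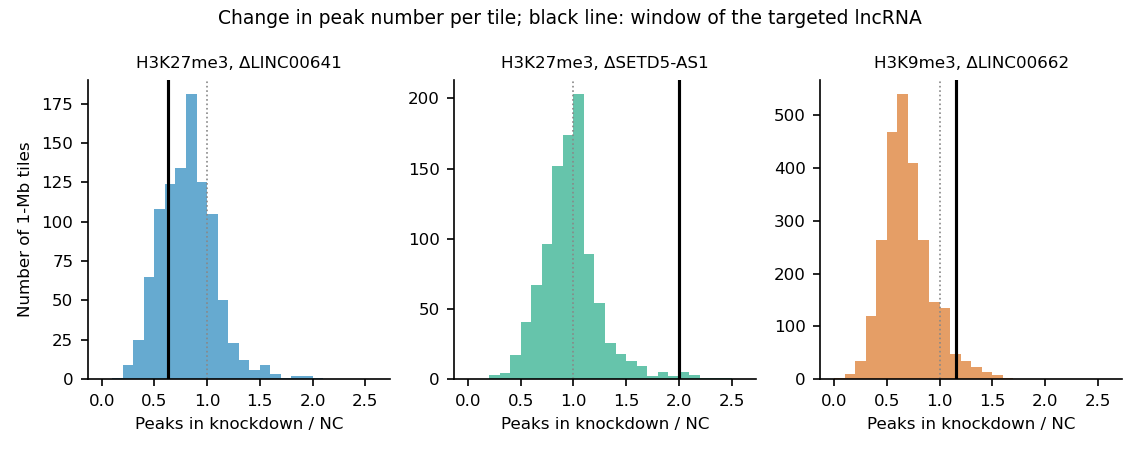
Number of peaks in the knockdown list divided by that in NC, over tiles of 1 Mb with at least 10 NC peaks (histogram; vertical axis, number of tiles), for the 3 knockdowns. The black line is the window of the lncRNA that was depleted, at 0.625 for LINC00641, 2 for SETD5-AS1 (where the window itself held only 2 NC peaks) and 1.15 for LINC00662, and the dotted line marks equal numbers.

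The same list gave lower numbers at the other 2 loci. In the LINC00641 window, H3K9me3 peaks numbered 25 in NC and 12 in ΔLINC00662, and in the SETD5-AS1 window 14 and 4. Retained were 12 of 25 (48.0%, interval 27.8% to 68.7%) and 4 of 14 (28.6%, interval 8.39% to 58.1%), against 37.9% of all NC peaks. The NC peaks closest to SETD5-AS1 formed a group of 3 in introns and an exon of SRGAP3 at chr3:9370642-9373407, 18.0 kb from the gene, with folds of 3.73, 3.40 and 4.34. In ΔLINC00662, 1 peak with a fold of 3.33 and 14 fragments was called there. Over the whole body of SRGAP3 6 NC peaks and 1 ΔLINC00662 peak were called. RAD18, a gene for a ubiquitin ligase of DNA damage tolerance, extends past the window edge and had 4 and 1 over its whole body. Within the window, RAD18 held the NC peak chr3:8969045-8969688, which was retained. The strongest NC peak of the window, chr3:9315903-9316791, had a fold of 5.16 with 30 fragments. The H3K9me3 peak closest to LINC00641, chr14:21645819-21646219, was retained, with a fold of 3.38 in NC and 3.08 in ΔLINC00662 and 20 fragments in each. The protein-coding gene OR5AU1, an olfactory receptor gene of that window, had an H3K9me3 peak within 1 kb of a start in ΔLINC00662 only, with a fold of 3.35 and 17 fragments. No other of the 29 protein-coding genes of that window had such a peak in either list. Over the genome, 8.95% of 20098 protein-coding genes had one in NC and 7.28% in ΔLINC00662.

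At the LINC00662 window 27 of 52 NC peaks were retained (51.9%, interval 37.6% to 66.0%). The genome-wide share of 37.9% was just inside this interval, and NC peaks of the same strength had 35.8% over the genome. On chromosome 19 as a whole 55.7% of NC peaks were retained, and 22 of 48 tiles of that chromosome retained at least 51.9%. Over the genome, 237 of 2521 tiles did so. Retention near LINC00662 was thus close to that of its chromosome and above that of most tiles of the genome. New peaks were 33 of 60 (55%, interval 41.6% to 67.9%), against 44.4% of all peaks of the ΔLINC00662 list.

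The higher number was in the class of weak peaks. With a −log10 q under 5 there were 39 peaks in NC and 52 in ΔLINC00662, a ratio of 1.33, against 0.772 for weak peaks of the genome. With a −log10 q of at least 5 there were 13 in NC and 8 in ΔLINC00662, a ratio of 0.615, against 0.619 for such peaks of the genome. Strong peaks near LINC00662 thus numbered fewer in ΔLINC00662, by about the ratio found elsewhere, while weak ones numbered more. A fixed −log10 q depends on depth, and retained peaks crossed it in both directions. The NC peak chr19:28264698-28264987 had a −log10 q of 8.21 and its partner 2.44, while chr19:28126855-28127161 had 2.81 and its partner 5.80. The class counts are therefore not counts of strong peaks lost and weak peaks gained. On both sides of the gene the peak number was higher in ΔLINC00662, with 22 and 25 at lower coordinates, towards the centromere, and 16 and 21 at higher coordinates.

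Inside the LINC00662 gene, 14 peaks were called in each list. Of the NC peaks, 8 were retained (57.1%, interval 28.9% to 82.3%), against 37.9% of all NC peaks, a share inside this interval. Of the ΔLINC00662 peaks, 6 of 14 were new, against 44.4% of all peaks of that list. The median summit held 17 fragments in NC, with a range of 15 to 29, and 15 in ΔLINC00662, with a range of 12 to 27. Of these peaks, 5 in NC and 1 in ΔLINC00662 had a −log10 q of at least 5. The 1 that did was the peak nearest the start, in an exon 2.27 kb downstream of it. It spanned chr19:28282487-28282828 in NC, with a fold enrichment of 4.91 and 28 fragments, and chr19:28282520-28282835 in ΔLINC00662, with a fold of 4.89 and 27 fragments. This peak, the strongest in the gene in both lists, had nearly the same height after depletion.

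The next NC peak of the gene by −log10 q, also exonic, was chr19:28264698-28264987 with a fold of 4.19 and 29 fragments, and its partner chr19:28263569-28264873 had a fold of 2.65 and 19 fragments. The intronic peaks chr19:28225357-28226021 and chr19:28226654-28227184, with folds of 4.34 and 3.78 in NC, had no partner, and the nearest ΔLINC00662 peaks were 9957 bp and 8794 bp away. The intronic peak chr19:28280523-28281186, with a fold of 3.97 and 20 fragments in NC, lay 0.552 kb from the LINC00662-ASO-3 site. It too had no partner, the nearest peak being 1334 bp away. That nearest peak, the retained peak close to the gene start, lay 0.763 kb from the same site in ΔLINC00662. Whether distance to this site matters was not tested. Over the 6 pairs within the gene, the log2 ratio was between −0.66 and 0.14, and lower in ΔLINC00662 in 5 of 6. With fragments divided by the genome-wide level of each list, however, 5 of 6 were higher in ΔLINC00662, so that the direction rests on the reference level.

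The summit of this exonic peak, second in the gene by −log10 q, is shown on the plus strand with CG in capitals, since its partner in ΔLINC00662 was lower. It was cut to 100 bases on either side of the NC summit, chr19:28264727-28264927.
LINC00662 exonic peak: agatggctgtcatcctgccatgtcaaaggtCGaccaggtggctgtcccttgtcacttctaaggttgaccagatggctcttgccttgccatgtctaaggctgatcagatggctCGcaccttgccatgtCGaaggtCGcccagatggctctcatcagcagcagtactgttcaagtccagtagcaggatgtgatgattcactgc
It had a GC content of 53.2% and held 4 CG.

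Just outside the gene the peaks of the lists were close to each other. Beyond the start, the NC peak chr19:28292933-28293211, 8.02 kb from the gene, had a fold of 3.78 with 19 fragments, and its partner chr19:28292888-28293423 a fold of 3.20 with 15. Beyond the other end, NC had chr19:28167082-28167561, with a fold of 3.59 and 18 fragments, 4.42 kb from the gene. The nearest peak of ΔLINC00662, chr19:28167603-28168032, had a fold of 3.33 and 14 fragments and lay 42 bp from that NC peak, so that the pair is counted as a lost and a new peak. ΔLINC00662 had another peak closer to the gene, chr19:28169032-28169511 at 2.47 kb, with a fold of 3.55 and 15 fragments. Of the 25 NC peaks that were lost in the whole window, 8 had a ΔLINC00662 peak within 1 kb, and the median distance was 2886 bp. By distance from the gene span, 12 NC and 15 ΔLINC00662 peaks lay within 50 kb, 8 and 12 between 50 and 250 kb, and 18 and 19 farther out, so that each distance class had more peaks in ΔLINC00662.

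Outside the gene, the strongest peaks of the window by −log10 q were 4 NC peaks at chr19:27731836-27738677, at the edge of the centromere gap. Their local input was between 112 and 682 times the genome-wide level. Of these, 3 were retained, with folds of 5.61, 6.28 and 4.76 in NC and 3.88, 4.34 and 3.72 in ΔLINC00662. The fourth, chr19:27738375-27738677 with a fold of 3.15, was the lost peak with the largest −log10 q, and it was 1749 bp from a ΔLINC00662 peak. The folds of such peaks rest on an input that is itself very high, and the 3 with a partner had lower folds in ΔLINC00662. Among peaks with ordinary input, chr19:28342290-28343895 was the strongest outside the gene, with a fold of 5.10 in NC and 4.60 in ΔLINC00662. The new peaks with the largest −log10 q were chr19:27776835-27777202, with a fold of 4.0 and 19 fragments, and chr19:28136347-28136644, in an intron of the endogenous retrovirus transcript ERVK-28, with a fold of 4.0 and 17 fragments.

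Over the 25 peaks paired 1 to 1 in the LINC00662 window, the median log2 ratio of fold enrichment was −0.16, from −0.66 to 0.58, and 16 of 25 were lower in ΔLINC00662. Over 28135 pairs of the genome it was 0.03, and 47.8% were lower. The direction depended on the reference level. When the fragments at the summit were instead divided by the genome-wide level of each list, the median was 0.19, with 5 of 25 lower, against 0.02 over the genome. The local input at the same peaks had a median of 1.00 times the genome-wide level in NC and 1.19 in ΔLINC00662, and it was higher in ΔLINC00662 for 18 of 25 pairs. No direction is therefore drawn from the heights of the paired peaks.

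**Figure D4:**
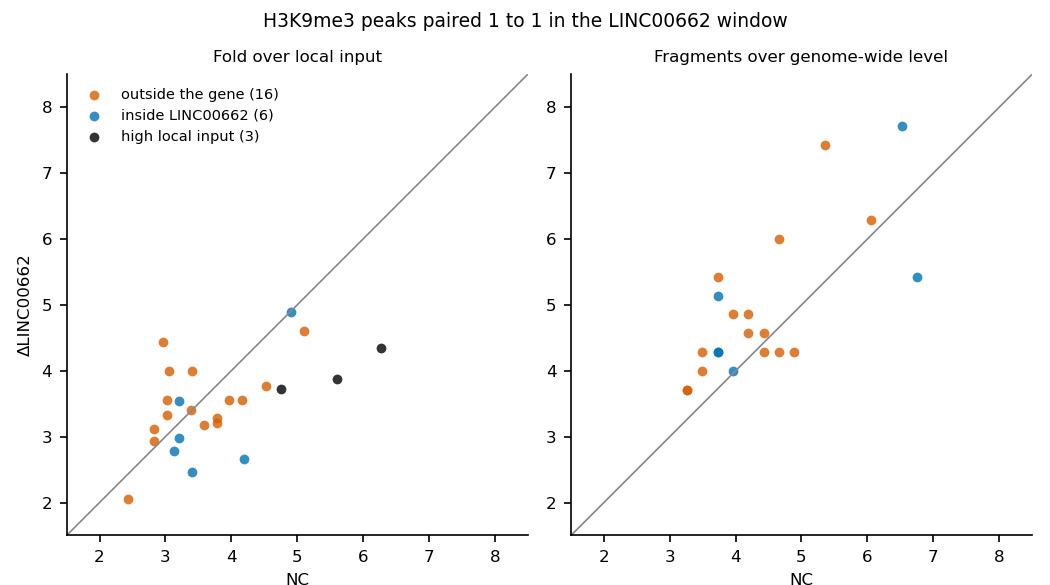
H3K9me3 peaks paired 1 to 1 in the LINC00662 window, with NC on the horizontal and ΔLINC00662 on the vertical axis; the line marks equal values. The left plot gives fold enrichment over local input for all 25 pairs, most of them below the line, and the right plot gives fragments at the summit over the genome-wide level of each list, most of them above it, without the 3 pairs of high local input.

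The LINC00662 window held 8 H3K27me3 peaks in NC as in ΔSETD5-AS1, and 4 in ΔLINC00641. None of the 8 NC peaks was retained in ΔLINC00641 (interval 0% to 36.9%, against 53.2% of all NC peaks), and 3 of 8 were in ΔSETD5-AS1. In NC these peaks held 12 to 23 fragments, and 7 were weak while 1 had a −log10 q of at least 5. The peak closest to the gene, chr19:28165886-28166815 in ΔSETD5-AS1, lay 5.17 kb from it and had a fold of 3.13 with 16 fragments and no partner in NC. The next were 66.5 kb from the gene in NC and 64.9 kb in ΔLINC00641, in introns of LINC02987, the lncRNA that overlaps the LINC00662 start.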

How the data were processed

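ChIP-seq peak lists of 5 groups, each from 3 ChIP and 3 input samples, were analysed. Per the submitters' processing notes and the methods of the study, reads were trimmed with cutadapt 3.3, checked with FastQC 0.11.8 and aligned to hg19 with Bowtie2 2.4.2, duplicates were removed with GATK, replicates were merged, and peaks were called as paired fragments with MACS2 2.2.7.1 against merged input. For each peak the deposited lists hold a fold enrichment and a −log10 p-value, both made by the authors with MACS2. The fold is a ratio of ChIP to local input at the summit, with the same constant added to both. They also hold the deposited −log10 q-value of MACS2, used here as a score of peak strength. From fold and p, the fragments at each summit and its local input were recovered to a tolerance of 0.02 in −log10 p for every peak. The lowest count for a call was 11 or 12 fragments, and median summits held 18 to 22.

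Windows were the gene span plus 500 kb on each side, with genes taken from GENCODE v44 lifted to GRCh37. A peak was retained or shared when at least 1 bp overlapped, and pairs were peaks with exactly 1 partner on each side. The items to be named were peaks in or within 10 kb of a targeted gene, the nearest peaks, the strongest peak of each list in each window, per comparison the 2 lost and the 2 new ones that ranked highest by −log10 q, and protein-coding genes with a peak within 1 kb of a start. Of these, the ones that carry a comparison are given, and other named peaks were chosen after their values were seen. Tiles of 1 Mb, GC groups and strength groups gave the levels elsewhere. With 1 pooled list per group no test was possible, so shares have exact Clopper-Pearson 95% intervals. ASO sequences were taken from the supplement of the study and searched with up to 2 mismatches. The members and lists were chosen with earlier results of these data known. Computation used Python 3.11.15, pandas 2.3.3, numpy 2.4.6, scipy 1.17.1, numba 0.67.0 and pysam 0.24.0, and was checked on simulated data. Alternatives were another overlap, merging of peaks within 1 kb, a −log10 q of at least 5, leaving out peaks with an input level above 5 times that of the genome, fragments over the genome-wide level, and windows of 250 and 1000 kb. Some oligonucleotide sites and summit sequences are not reported here.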

Additional observations from a re-analysis of the deposited data

How the results depend on the processing

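No paired analysis was possible because each deposited list already pools its 3 replicates, and for the same reason leaving out a replicate was not run. Of 52 values recomputed under the alternatives for 12 results, 43 counted as the same, 7 moved and 2 reversed. A share was the same inside its counting interval, and a ratio when it kept its direction and stayed within 1.5 times. The intervals at LINC00641 and SETD5-AS1 were wide, so for shares there this tally is no measure of stability. The SETD5-AS1 new share, 75% in the main setting, counted as the same at 29.6% (8 of 27) with 1000 kb. With peaks of a −log10 q of at least 5 only, the H3K27me3 number ratio in the LINC00641 window was 0 and the retained share 0% (0 of 2 NC peaks), the share of new peaks in the SETD5-AS1 window was 100% (2 of 2), and at LINC00662 the H3K9me3 number ratio was 0.615, below 1, with 25% of peaks new (2 of 8). This setting left no NC peak at SETD5-AS1 and no knockdown peak at LINC00641, so that it gave no ratio or retained share for the first, no new share for the second and no pairs for either. With 250 kb on each side, the LINC00641 window held 1 NC peak, with a ratio of 1 and 100% retained. With 1000 kb, the SETD5-AS1 ratio was 1.08. The median log2 ratio at LINC00662 turned to 0.19 when fragments were divided by the genome-wide level. Apart from this last one, where the local input differed, each moved value came from fewer or other peaks counted.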

Other observations

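The repeat-like site of LINC00662-ASO-3 was followed beyond the gene, a choice made after the values were seen. Of the H3K9me3 NC peaks on the autosomes and the X chromosome, 3194 (3.84%) lay within 1 kb of 1 of the 9230 genomic sites that match a LINC00662 oligonucleotide with at most 1 mismatch. In ΔLINC00662, 20.6% of these were retained, against 38.2% of the other NC peaks. Their median GC content was 39.5%, against 47.6%, and peaks of the same GC content were retained at 21.2%. Within 5 kb of a site the values were 36.5% and 37.7%, with 30.0% from the GC content. Around the same sites within 1 kb, H3K27me3 peaks were retained in ΔLINC00641 at 32.4% against 53.5%, with 40.4% from the GC content. In ΔSETD5-AS1 the values were 46.7% against 56.5%, with 46.4% from the GC content. These comparisons have no replicates and no test.

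Limits apply to all of these values. Each group is 1 pooled list, so a difference between lists cannot be told apart from one between immunoprecipitations or depths. H3K27me3 windows hold 2 to 8 peaks. Where no peak was called, the mark was not detectable at this depth. The depletion of each RNA was not analysed here, and no list of H3K9me3 after LINC00641 or SETD5-AS1 depletion, or of H3K27me3 after LINC00662 depletion, was used here.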
